A study of Mus musculus with 6 samples.

Results

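The urea cycle genes measured here were the 9 genes Nags, Cps1, Otc, Slc25a15, Slc25a13, Ass1, Asl, Arg1 and Arg2, taken by their symbols from a bulk RNA-seq count table of 52323 genes. All 9 were in the table. The cells were damaged hepatocytes (dHeps) from the livers of CCl4-injured mice, in which carbon tetrachloride causes chronic liver damage. Their genotype was AAV-TBG-Cre:Rosa-LSL-tdTomato, so the hepatocyte-directed TBG promoter drove a viral Cre that switched on a tdTomato reporter, and every group carried it. The cells of all groups were kept for 16 days in serum-free Hepatocyte Maintenance Medium (Lonza). The control cells received the solvent, DMSO. In 3C the medium contained CID755673 at 50 µM, GSK429286A at 2 µM and ETC-1002 at 5 µM. In 5C it contained these 3 at the same doses together with salidroside at 5 µM and forskolin at 2 µM, which raises cAMP by activating adenylate cyclase. There were 2 libraries in each of the 3 groups. For the injury model the methods give mice aged 8 to 10 weeks, of both sexes, and CCl4 injections over 12 weeks. The methods call replicates biological in general, but the labels do not say whether the 2 libraries of a group came from different animals or cultures, so the p-values measure the spread between these libraries. The study asked whether the cocktails return damaged hepatocytes towards hepatocyte gene expression, and 3C is 5C without salidroside and forskolin.

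The urea cycle turns ammonia, which is toxic, into urea, and in mammals the complete cycle runs mainly in hepatocytes, most strongly in those near the portal vein. Nags makes N-acetylglutamate, the obligatory activator of Cps1, and Cps1 and Otc carry out the mitochondrial steps from ammonia to citrulline. Slc25a15 exchanges ornithine and citrulline across the inner mitochondrial membrane, and Slc25a13 (citrin) exports the aspartate that Ass1 needs. In the cytosol, Ass1 and Asl build and cleave argininosuccinate, and Arg1 splits arginine into urea and ornithine. Arg2 is a mitochondrial arginase found mainly outside the hepatocyte cycle. Arg1 is also made by macrophages, above all by alternatively activated ones.

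Total estimated counts per library lay between 65916573 and 69245895, and the labels name no batch. Hepatocyte markers were present in every library, with Alb, the gene for serum albumin, at 1349 and 1196 CPM in DMSO and between 6807 and 10673 CPM in the treated groups. CPM are counts divided by the library total after scaling by the trimmed mean of M-values (TMM). The summed level of 11 hepatocyte markers found in the table was 2716 to 2961 CPM in DMSO, 12471 to 13094 in 3C and 12434 to 17967 in 5C. Transcripts used as markers of other liver cells were also present. The sum of 20 macrophage markers was 15741 to 17348 CPM in DMSO, 5485 to 5521 in 3C and 3856 to 3906 in 5C, and that of 12 stellate and fibroblast markers was 8222 to 9392 in DMSO, 7141 to 7261 in 3C and 11922 to 13209 in 5C. The sum of 7 mesothelial markers was 991 to 1186 CPM in DMSO, 1241 to 1380 in 3C and 2369 to 2426 in 5C. In such bulk samples, fewer cells of a type and less RNA per cell cannot be told apart. The paper reports higher levels of mesenchymal genes, among them Col1a1, Col1a2, Acta2 and Des, in hepatocytes after CCl4 injury. Bulk RNA therefore does not tell which cells made these transcripts.

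On the GRCm39 build the members lie on 9 different chromosomes. All are annotated as protein-coding. Cps1 is at chr1:67161988-67270418 on the plus strand, Otc at chrX:10118503-10187265 (plus), Ass1 at chr2:31352181-31410862 (plus), and Asl at chr5:130040099-130058088 (minus). Arg1 is at chr10:24791118-24803817 (minus), Arg2 at chr12:79177524-79203075 (plus), and Nags at chr11:102036339-102040303 (plus). The carriers Slc25a15 and Slc25a13 are at chr8:22865516-22889423 and chr6:6040252-6217294, both on the minus strand.

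The 250 bases before the start of each member's canonical transcript differed widely in CpG dinucleotides, the sites of DNA methylation in mammals. Cps1 had 0, Otc and Arg1 1 each, Slc25a13 5, Asl 7, Nags and Slc25a15 13 each, Arg2 15 and Ass1 16, where the median of 21757 protein-coding promoters was 8 and 16.5% held 0 or 1. The members called higher in 5C thus came from both ends of this range. Otc and Ass1 are printed as examples of a low and a high number among the windows that hold no annotated exon, with CpG in capitals, 5′ to 3′ on the gene's strand. The Otc window is chrX:10118253-10118502 and the Ass1 window chr2:31359904-31360153, which lies inside the annotated Ass1 interval because longer transcripts start upstream of the canonical one.
Otc: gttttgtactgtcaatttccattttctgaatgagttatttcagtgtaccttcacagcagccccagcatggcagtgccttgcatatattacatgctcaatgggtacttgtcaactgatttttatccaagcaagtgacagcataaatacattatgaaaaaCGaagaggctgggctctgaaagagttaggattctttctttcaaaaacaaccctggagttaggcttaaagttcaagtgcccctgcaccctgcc
Ass1: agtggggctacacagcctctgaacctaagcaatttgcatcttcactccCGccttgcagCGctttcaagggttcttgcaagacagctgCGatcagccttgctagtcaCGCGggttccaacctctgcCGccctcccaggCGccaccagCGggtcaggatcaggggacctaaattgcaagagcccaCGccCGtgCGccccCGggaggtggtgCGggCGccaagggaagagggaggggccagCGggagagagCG

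Short motifs were searched in these windows on both strands. The core letters of the cAMP response element, TGACG, was in 1 of the 9 windows, that of Nags, and in 18.0% of all promoters. The SP1 box GGGCGG was in 4 (Ass1, Arg2, Nags and Slc25a15) and in 36.3% of all. The C/EBP letters TTGCNNAA, the HNF4 letters CAAAGTCCA, the HNF1 letters GTTAAT, the glucocorticoid receptor letters AGAACA and the TATA box TATAAA were in none of the 9, beside 9.34%, 0.372%, 6.28%, 14.3% and 11.9% of all promoters. These counts describe letters in the windows only.

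Most of the cycle rose in the treated cells, and the direction was not shared by the arginases. In 5C against DMSO, 7 of the 9 members were higher and 1 was lower at an adjusted p under 0.05 in edgeR's quasi-likelihood test with Benjamini-Hochberg adjustment over all 19135 genes tested, beside 15.6% and 13.1% of all genes. In 3C against DMSO, 6 were higher and 1 lower, beside 12.7% and 11.8% of all. Passing this test is what rose and fell mean below. A gene was called when its log2 fold change also exceeded 1 in size. By this rule 6 members were called higher in 5C (Cps1, Otc, Ass1, Slc25a13, Slc25a15 and Nags), where 7.3% of all genes were, and 4 in 3C (Cps1, Ass1, Nags and Slc25a13), where 5.83% were. No member was called lower in either, where 4.42% of all genes were in 5C and 3.62% in 3C. The median log2 fold change of the members was 1.21 in 5C and 1.29 in 3C, beside 0.00 and 0.01 over all genes tested. The DMSO libraries were common to these 2 comparisons. All 9 members passed the filter on low counts, but Otc passed it only through the treated libraries, so its presence among the genes tested was tied to its difference. Where at least 10 counts were required in every library, Otc dropped out and 5 of the other 8 members were called in 5C and 4 in 3C.

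**Figure D1:**
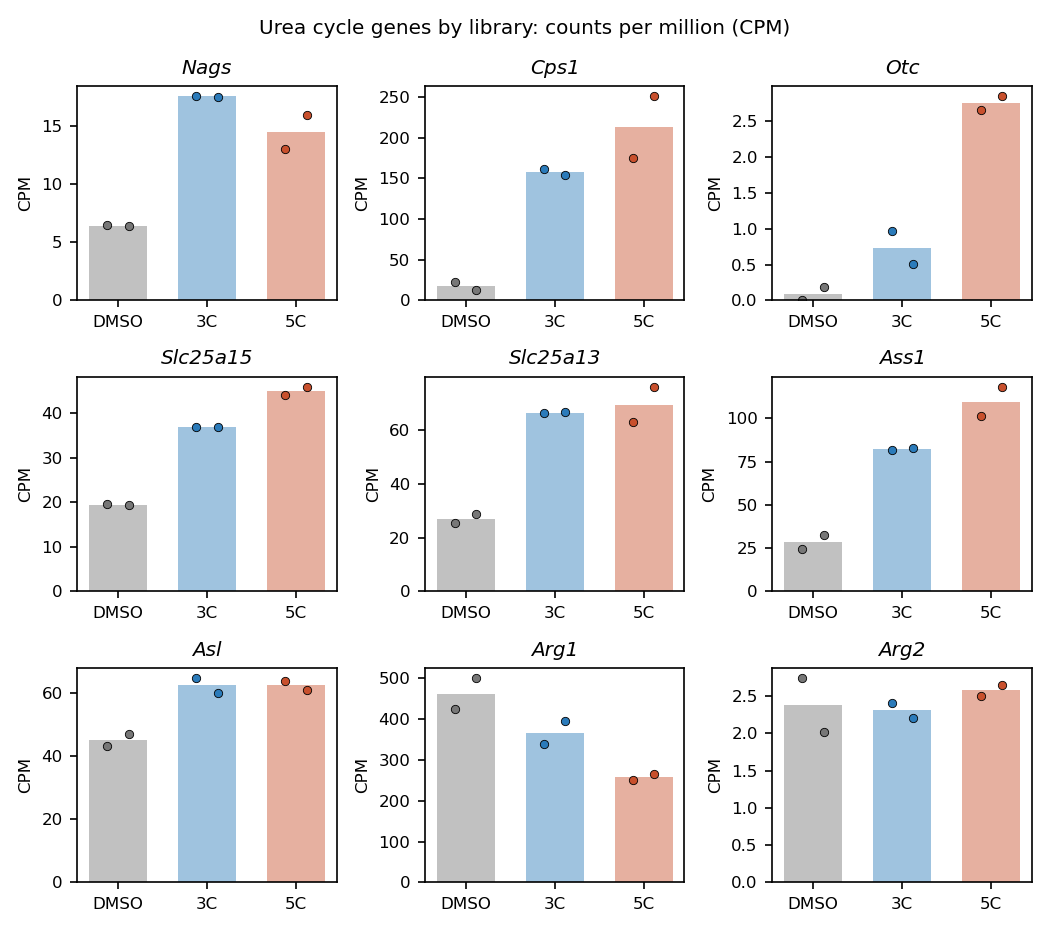
Each panel plots 1 urea cycle gene, with points for the 2 libraries of a group and bars for their mean in CPM on an axis from 0. Cps1 stands at 13.0 and 23.0 CPM in DMSO and at 154 to 251 CPM in the treated libraries, Arg1 falls from 424 and 499 CPM in DMSO to 249 and 264 CPM in 5C, and the Arg2 groups overlap except that 5C lies above 3C.

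Between 5C and 3C no member was called, where 2.16% of all genes were called higher in 5C and 0.852% lower. At an adjusted p under 0.05, Arg1 was lower in 5C and no other member passed, beside 5.33% of all genes lower and 7.33% higher. The median difference of the members was 0.16 on the log2 scale, beside -0.01 over all genes. The replicates of 5C and 3C did not overlap for 7 of the 9 members, which was true of 56.3% of all genes. Against DMSO this number was 8 in each cocktail, beside 63% of all genes for 5C and 61.6% for 3C.

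Among the mitochondrial enzymes, Cps1 changed most of the members that were above the detection floor in every library. Its levels were 23.0 and 13.0 CPM in DMSO, 161 and 154 in 3C, and 175 and 251 in 5C. The lowest treated library was thus far above the highest DMSO library, while the 2 DMSO libraries themselves were apart. Cps1 rose by 3.57 ± 0.36 (SE, adjusted p = 0.00298) on the log2 scale in 5C, an 11.8-fold change, and by 3.13 ± 0.35 (adjusted p = 0.00497) in 3C. The difference between the cocktails was 0.43 with a 95% interval from -0.43 to 1.30 (adjusted p = 0.526), so a difference of either sign was not resolved. Among 19125 tested genes with a deposited FPKM, Cps1 stood at a percentile of 40.5 to 47.5 in DMSO and of 83.7 to 90.2 in the treated libraries. The sum of hepatocyte markers moved in the same direction, with 10 of 11 called higher in 5C and 11 of 11 in 3C, beside 7.3% and 5.83% of all genes. The part of these markers in the rise of Cps1 was not tested. Relative to Alb, the FPKM of Cps1 was 0.623% and 0.398% in DMSO, 0.815% and 0.738% in 3C, and 0.940% and 0.861% in 5C, without overlap of the groups. This scale rests on 1 of the 11 markers, and the markers changed by different factors. Apoa1 went from 112 and 90.4 CPM in DMSO to 1154 and 1687 in 5C, and Ambp from 208 and 254 to 561 and 479. The order of the groups on the scale of other markers was not tested.

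Otc was hardly detected. Its estimated counts were 0 and 12 in DMSO, 65 and 35 in 3C, and 182 and 192 in 5C, or 0 and 0.184 CPM, 0.961 and 0.504 CPM, and 2.65 and 2.85 CPM. Low counts were in excess at multiples of 4, and if 4 units stand for 1 fragment the floor of 3 fragments is 12 units, so that both DMSO libraries were at or under it. Against that floor in each library, a mean of 0.181 CPM, Otc was at least 15.2-fold higher in 5C and at least 4.05-fold higher in 3C. Otc was called in 5C (adjusted p = 0.0085) and not in 3C (adjusted p = 0.0649), with the limit from the filter given above. The 5C libraries were above both 3C libraries, with a difference of 1.91 on the log2 scale (95% interval 0.00 to 3.81, adjusted p = 0.202). These last 2 tests turned on single libraries: without DMSO replicate 1 the adjusted p was 0.0496 for 3C against DMSO and 0.017 for 5C against 3C, and without DMSO replicate 2 it was 0.00154 and 0.0168. With DESeq2, 3C against DMSO was also called (adjusted p = 0.00427).

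Nags, which makes the activator of Cps1, rose in both cocktails. It was at 6.46 and 6.40 CPM in DMSO, 17.5 and 17.5 in 3C, and 13.0 and 15.9 in 5C. All treated libraries exceeded DMSO, and both 3C libraries exceeded both 5C libraries. The log2 change was 1.17 ± 0.14 (adjusted p = 0.000268) in 5C and 1.45 ± 0.14 (adjusted p = 9.79e-05) in 3C. The lower level in 5C than in 3C did not pass the test (-0.28, 95% interval -0.59 to 0.04, adjusted p = 0.265). Of the 50-base words of the longest Nags transcript, 17.1% occur in other genes. The largest share was with the antisense gene Gm11586, which had 0 to 18 counts a library.

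The mitochondrial carriers of the cycle rose as well. Slc25a15 had 19.6 and 19.4 CPM in DMSO, 37.0 and 36.8 in 3C, and 44.1 and 45.9 in 5C. The 3 groups thus formed steps without overlap. Its log2 change was 1.21 ± 0.09 (adjusted p = 1.07e-05) in 5C, which was called, and 0.92 ± 0.09 (adjusted p = 7.07e-05) in 3C, which was short of the fold limit. The step from 3C to 5C was 0.28 (95% interval 0.09 to 0.48) and missed the adjusted threshold (adjusted p = 0.0611). Of 17 alternative fits it passed in 3, among them DESeq2 (adjusted p = 0.0176) and the fit of only the 4 libraries compared (adjusted p = 0.044). Leaving out a replicate gave steps from 0.25 to 0.31. Slc25a13 had 25.3 and 28.8 CPM in DMSO, 66.2 and 66.6 in 3C, and 62.8 and 75.9 in 5C. Its log2 changes were 1.36 ± 0.11 (adjusted p = 1.99e-05) in 5C and 1.29 ± 0.11 (adjusted p = 3.71e-05) in 3C, and the cocktails overlapped (0.06, 95% interval -0.17 to 0.30, adjusted p = 0.797). Slc25a12, the other mitochondrial aspartate carrier, did not pass the test in any comparison, and the FPKM ratio of Slc25a13 to Slc25a12 was 1.15 and 1.53 in DMSO, 3.61 and 4.31 in 3C, and 3.45 and 3.84 in 5C.

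**Figure D2:**
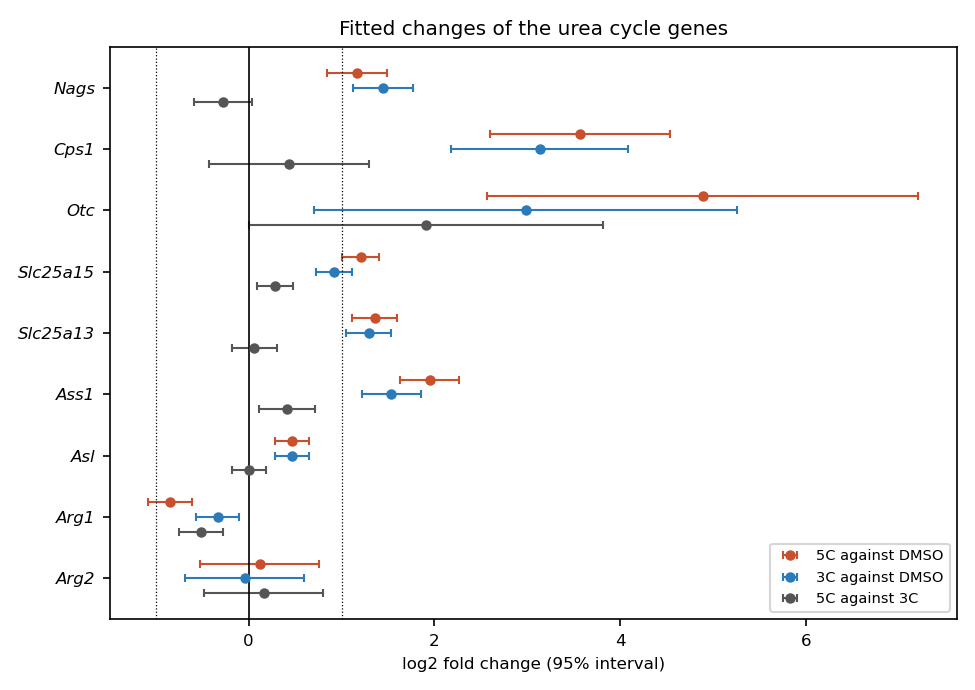
Points are fitted log2 fold changes of the 9 genes in the 3 comparisons and bars their 95% intervals, with dotted lines marking the fold limit of 1 on each side of 0. Against DMSO, 6 genes lie beyond the upper line in 5C, Asl lies at 0.47 in both cocktails and Arg1 at -0.85 and -0.33, while the intervals of 5C against 3C include 0 for Nags, Cps1, Slc25a13, Asl and Arg2.

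Ass1, which joins citrulline and aspartate, was at 24.3 and 32.5 CPM in DMSO, 81.5 and 83.0 in 3C, and 101 and 118 in 5C. The groups stood in this order without overlap. Its log2 change was 1.95 ± 0.14 (adjusted p = 2.27e-05) in 5C and 1.54 ± 0.14 (adjusted p = 0.000106) in 3C. The difference between the cocktails was 0.41 (95% interval 0.11 to 0.72, adjusted p = 0.0885).

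The counts of Ass1 are uncertain because 48.3% of the 50-base words of its longest transcript occur in other genes, mainly in the processed pseudogene Gm5424 at chr10:61906902-61908141 (plus strand). Over the 1236 coding bases of Ass1, Gm5424 differs at 6 and is 99.5% identical. The stretch of coding bases 310 to 429 shows how few bases tell the 2 copies apart, since it is the first window of 120 bases with the most mismatches, and holds 2 of them, given in capitals.
Ass1: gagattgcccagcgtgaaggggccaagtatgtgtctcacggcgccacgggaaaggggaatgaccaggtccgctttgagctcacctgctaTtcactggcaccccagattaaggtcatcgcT
Gm5424: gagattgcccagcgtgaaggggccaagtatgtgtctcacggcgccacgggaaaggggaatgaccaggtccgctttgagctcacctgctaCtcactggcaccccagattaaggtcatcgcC
The deposited counts of Gm5424 were 1357 and 745 in DMSO, 2213 and 2224 in 3C, and 2320 and 3207 in 5C. For each 100 counts of Ass1, Gm5424 had 82.7 and 35.2 in DMSO but 33.4 to 40.3 in the treated libraries, so DMSO replicate 1 stood apart in how the reads were split. Summed over both genes, the DMSO libraries came closer together, at 44.4 and 43.9 CPM, beside 114 and 115 in 3C and 135 and 165 in 5C. The summed row, an alternative chosen after the data had been seen, changed by 1.77 ± 0.10 (adjusted p = 2.37e-06) in 5C and by 1.38 ± 0.10 (adjusted p = 1.41e-05) in 3C. On the summed row the difference of 5C from 3C passed the test at 0.39 ± 0.09 (95% interval 0.18 to 0.60, adjusted p = 0.0256). For Ass1 alone this difference also passed with DESeq2 (adjusted p = 0.0261), with only the 4 libraries compared (0.0117) and with replicate number as a block (0.0351). It did not pass with upper quartile scaling (0.0902) or without a filter on low counts (0.0917). Leaving out a replicate gave log2 differences of Ass1 from 0.29 to 0.52.

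Asl, which releases arginine and fumarate, moved least among the genes that rose. It had 43.3 and 46.8 CPM in DMSO, 64.6 and 60.0 in 3C, and 63.8 and 61.0 in 5C. Every treated library was above DMSO and the cocktails overlapped. The log2 change was 0.47 ± 0.08 in both, with an adjusted p of 0.00207 in 5C and 0.00252 in 3C, below the fold limit for a call. The 2 cocktails differed by 0.00 on the log2 scale, with a 95% interval from -0.18 to 0.18, so a difference of more than 0.18 either way lies outside the interval.

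Arg1 went the other way. It was at 424 and 499 CPM in DMSO, 337 and 395 in 3C, and 249 and 264 in 5C, and the 3 groups did not overlap. Arg1 fell by 0.85 ± 0.10 (adjusted p = 0.000269) on the log2 scale in 5C, to a level 1.80-fold lower, and by 0.33 ± 0.10 (adjusted p = 0.0422) in 3C. It was 0.51 ± 0.10 lower on the log2 scale in 5C than in 3C (log2 change -0.51, adjusted p = 0.0115). The fall in 5C passed the test in each alternative fit that was run, with adjusted p values up to 0.00477. The fall in 3C did not pass without DMSO replicate 2 (adjusted p = 0.197), 3C replicate 1 (0.312), 5C replicate 1 (0.0661) or 5C replicate 2 (0.0645). Nor did it pass with only the 4 libraries compared (0.0634) or with limma on log2(FPKM + 1) (0.0613) or log2(FPKM + 0.1) (0.0545). The difference of 5C from 3C did not pass without 3C replicate 2 (0.118), 5C replicate 1 (0.078) or 5C replicate 2 (0.0507). Of the 50-base words of the longest Arg1 transcript, 16.5% occur in other genes, with the largest share in the antisense gene Gm36172. Gm36172 had only 12 to 71 counts a library, beside 17120 to 32518 for Arg1.

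Macrophage transcripts were lower in the same libraries. Of the 20 macrophage markers, 18 were called lower in 5C and the same number in 3C, beside 4.42% and 3.62% of all genes. Clec4f did not pass the test, and Cd14 rose by 0.60 (adjusted p = 0.000734) in 5C and 0.86 (adjusted p = 0.000112) in 3C. None of the 20 was at 0 in both libraries of a group, and Lyz2 was the most abundant. Their sum was 4.26-fold lower in 5C and 3.01-fold lower in 3C than the DMSO mean, where Arg1 was 1.80-fold and 1.26-fold lower. For 10 markers of alternatively activated macrophages, of which Mrc1 is on both lists, the sum was 3664 and 3743 CPM in DMSO, 809 and 912 in 3C, and 487 and 555 in 5C. Of these 10, 8 were tested, 5 were called lower in each cocktail (Chil3, Mrc1, Clec10a, Alox15 and Ccl24), and Retnla was at 0 in all libraries. Chil3, a chitinase-like protein of such cells, went from 2239 and 2263 CPM in DMSO to 80.0 and 87.4 CPM in 5C. For each 100 CPM of summed macrophage markers, Arg1 had 2.69 and 2.88 CPM in DMSO, 6.15 and 7.15 in 3C, and 6.47 and 6.76 in 5C. Arg1 was thus lower by a smaller factor than these sums, and how much of its RNA came from macrophages or from hepatocytes was not tested.

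**Figure D3:**
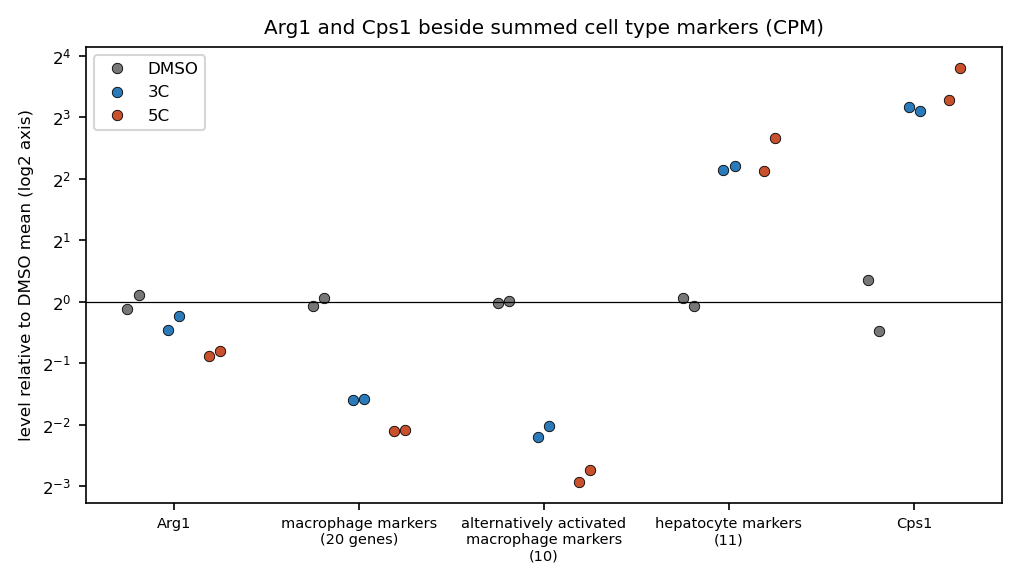
Levels in each library are divided by the DMSO mean and drawn on a log2 axis for Arg1, Cps1 and the summed CPM of 3 marker lists. Arg1 lies at 0.540 and 0.572 of the DMSO mean in 5C, the macrophage sum at 0.233 and 0.236, the hepatocyte sum at 4.38 and 6.33, and Cps1 at 9.72 and 14.0.

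Arg2 did not pass the test in any comparison. It had 2.74 and 2.01 CPM in DMSO, 2.41 and 2.20 in 3C, and 2.51 and 2.65 in 5C. The log2 difference from DMSO was 0.12 (95% interval -0.52 to 0.76, adjusted p = 0.807) in 5C and -0.04 (-0.68 to 0.60, adjusted p = 0.942) in 3C, so changes within these bounds could not be resolved with 2 libraries a group. Arg2 overlaps exons of the antisense genes Vti1b and Gm48780. Vti1b had 4232 to 4886 counts a library and Gm48780 had 22 to 40, where Arg2 had 131 to 185. Of the 50-base words of the longest Arg2 transcript, 34.6% occur in other genes, with the largest share in Vti1b. As the library kit does not mark strand, reads from these shared words cannot be told apart.

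In this mixed RNA, which also held macrophage transcripts, Arg1 was the largest per transcript length in every library. Its FPKM was 270 and 297 in DMSO, 207 and 246 in 3C, and 154 and 155 in 5C, the highest of the 9 members throughout, while Otc was the lowest and Arg2 the 8th throughout. In DMSO, Asl was the next after Arg1, at 18.2 and 18.3 FPKM. In the treated libraries Ass1, at 43.5 to 60.3 FPKM, took this place, followed by Cps1 at 25.5 to 39.1 FPKM and Asl at 22.8 to 25.8 FPKM. The order of Asl and Ass1 (13.4 and 16.9 FPKM) in DMSO is uncertain, because reads of Ass1 can be counted for Gm5424. There Gm5424 had 82.7 and 35.2 counts for each 100 of Ass1, so a change of order between DMSO and the treated libraries was not resolved. Cps1 and Asl overlapped in 3C but not in 5C, and in DMSO Cps1 (3.87 and 2.05 FPKM) overlapped with Nags (2.95 and 2.74 FPKM). Of the summed FPKM of Cps1, Otc, Ass1, Asl and Arg1, Arg1 made up 88.4% and 88.8% in DMSO, 68.3% and 72.4% in 3C, and 58.4% and 55.7% in 5C. Cps1 made up 1.27% and 0.614%, 8.67% and 7.48%, and 10.9% and 14.1% in the same order. The FPKM ratio of Arg1 to Cps1 was 69.7 and 145 in DMSO, 7.88 and 9.68 in 3C, and 5.37 and 3.96 in 5C. The transcripts of the 5 enzymes were thus less unequal in the mixed RNA of the treated libraries, with Arg1 still the largest. Their shares within hepatocytes alone were not tested.

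**Figure D4:**
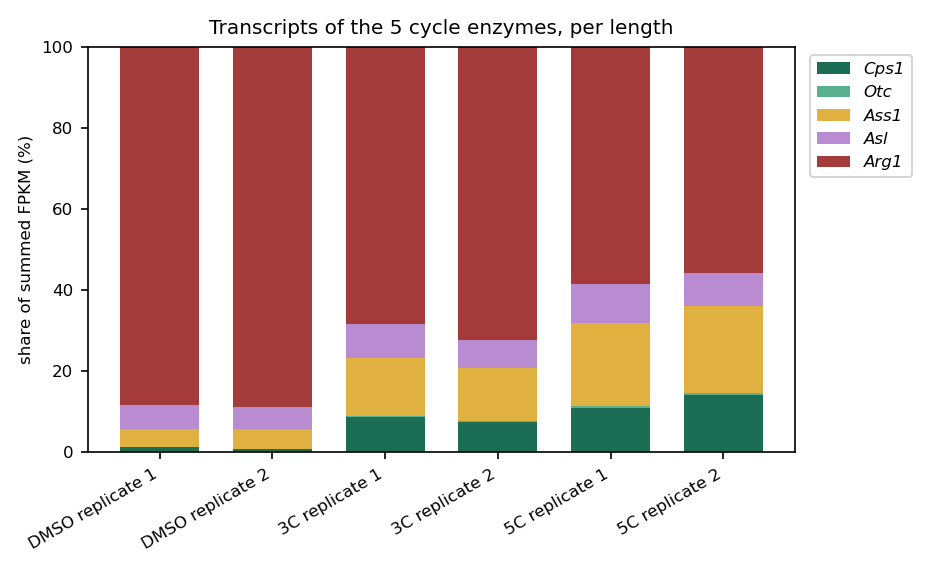
Each stacked bar is 1 library, and its parts are the shares in percent of the summed FPKM of the 5 enzymes of the cycle, in RNA of all cells present. Arg1 takes 88.4% and 88.8% in DMSO and 58.4% and 55.7% in 5C, Cps1, Ass1 and Asl take most of the rest, and Otc is too small to see in DMSO. Reads counted for Gm5424 are not included in the share of Ass1.

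The profiles of the members over the 6 libraries fell at different distances from each other. As a measure, the root mean square distance of log2 CPM, each gene centred on its own mean, was used. Nags and Slc25a13 were the closest members, at 0.151, followed by Slc25a15 and Slc25a13 at 0.176. Otc and Arg1 were the farthest apart, at 2.58. The member nearest to Cps1 was Ass1, at 0.856. Among the 10248 genes averaging 10 CPM or more, the 5 profiles most like that of Cps1 were Cfhr2 (a complement factor H-related protein, distance 0.115), Slc27a2 (a fatty acid transporter, 0.146), Tdo2 (tryptophan dioxygenase, 0.146), Aldh1a7 (an aldehyde dehydrogenase, 0.172) and Kng1 (kininogen, 0.185). Cfhr2 had 7.67 and 5.17 CPM in DMSO, 58.2 and 61.3 in 3C, and 74.9 and 98.3 in 5C. The 5 most like Arg1 were Rasgef1b (0.0635), Dtx4 (0.0706), Cd44 (the hyaluronan receptor, 0.0715), Tnfrsf23 (a decoy receptor for TRAIL, 0.0719) and Antxr2 (0.0792). Cd44 had 179 and 211 CPM in DMSO, 156 and 180 in 3C, and 106 and 106 in 5C. The groups fix much of such distances, and they are given as descriptions over 6 libraries.

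Genes that feed nitrogen into the cycle changed in part. Of a list of 21 genes of ammonia, glutamate and glutamine metabolism, 20 were tested. In 5C 3 were called higher (Gpt, Gpt2 and Slc38a3) and 1 lower (Glul). In 3C 5 were called higher (Gls2, Gpt, Gpt2, Prodh and Slc38a3) and again Glul lower. Of all genes, 7.3% were called higher and 4.42% lower in 5C, and 5.83% and 3.62% in 3C. None of the list was called between the cocktails, beside 2.16% of all genes higher in 5C and 0.852% lower. The median log2 change of the list was 0.13 in 5C and 0.06 in 3C. Gpt and Gpt2, the alanine aminotransferases that pass the nitrogen of alanine to glutamate, differed in level and pattern. Gpt was at 11.7 and 11.5 CPM in DMSO, 41.7 and 43.3 in 3C and 50.0 and 50.3 in 5C, and rose by 2.12 (adjusted p = 5.97e-07) in 5C. Gpt2 was at 248 and 268 CPM in DMSO, 843 and 790 in 3C, and 566 and 533 in 5C, and was lower in 5C than in 3C (log2 change -0.57, adjusted p = 0.00183). Slc38a3, a glutamine transporter, rose from 49.2 and 45.8 CPM to 132 and 143 CPM in 5C. Prodh, proline dehydrogenase, reached 25.5 and 20.6 CPM in 3C but 13.5 and 13.5 CPM in 5C from 7.20 and 9.15 CPM in DMSO, and was lower in 5C than in 3C (log2 change -0.77, adjusted p = 0.0125). Glul, the glutamine synthetase that captures ammonia outside the cycle in pericentral hepatocytes, went from 489 and 516 CPM in DMSO to 243 and 244 in 3C and 199 and 218 in 5C. It fell by 1.27 (adjusted p = 3.49e-06) on the log2 scale in 5C. Macrophages can also express Glul, and the macrophage sums given above moved with it. Their part in its fall was not tested.

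**Figure D5:**
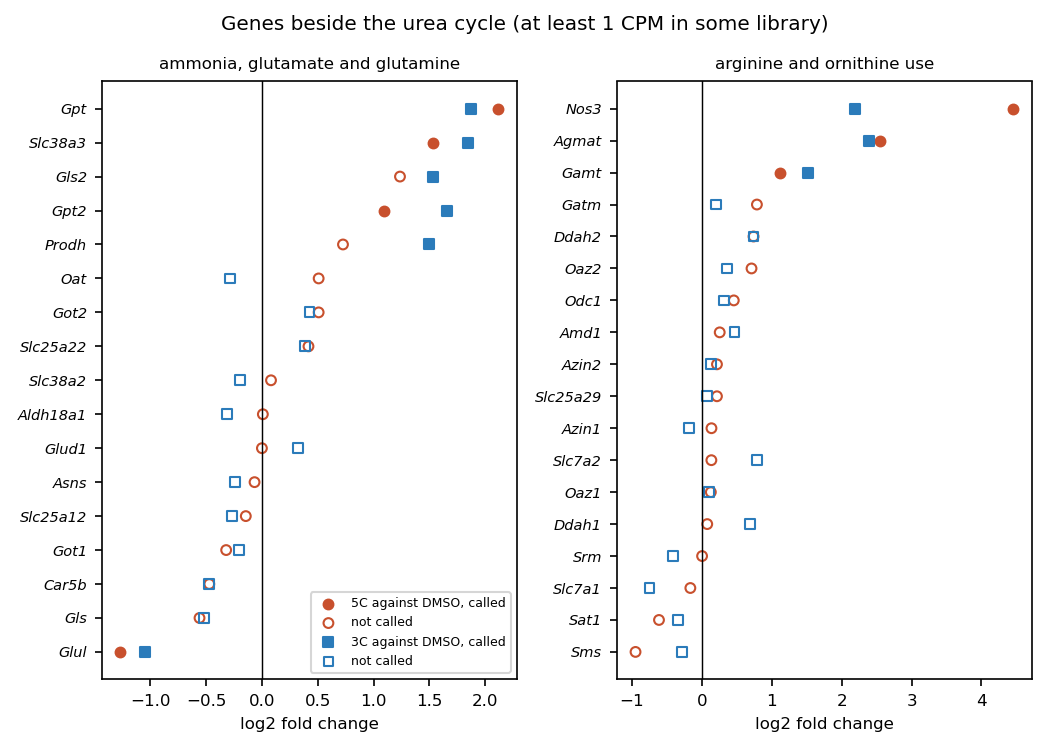
Log2 fold changes against DMSO are drawn for genes of 2 lists beside the cycle that reached 1 CPM in some library, circles for 5C and squares for 3C, filled where the gene was called. Gpt at 2.12, Slc38a3 at 1.53 and Gpt2 at 1.09 are called in 5C on the left with Glul at -1.27 at the bottom, and Nos3, Agmat and Gamt are the called genes on the right.

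Most genes around arginine and ornithine were not called. The list of 21 genes, all tested, holds enzymes, transporters and genes of polyamine metabolism. Agmat, Gamt and Nos3 were called higher in both cocktails, beside 7.3% of all genes in 5C and 5.83% in 3C. None was called lower, beside 4.42% and 3.62% of all genes. The list's median log2 change was 0.22 in 5C and 0.31 in 3C. Agmat, annotated as agmatinase, went from 1.72 and 1.81 CPM in DMSO to 8.49 and 10.1 in 3C and 10.2 and 10.5 in 5C. Gamt, which makes creatine from guanidinoacetate, went from 10.1 and 11.7 CPM to 32.2 and 30.1 in 3C and 22.7 and 24.6 in 5C. Nos3, the nitric oxide synthase of endothelium, was near the floor in DMSO at 0.207 and 0.215 CPM and was the only gene of the list called between the cocktails, with 0.577 and 1.35 CPM in 3C and 3.38 and 5.94 in 5C. Endothelial markers moved with Nos3, with 6 of the 9 tested called higher in 5C, 4 in 3C and 4 in 5C against 3C. The shares of all genes called higher were 7.3%, 5.83% and 2.16% in the same order. Pecam1, for example, was at 0.874 and 0.706 CPM in DMSO, 3.05 and 8.61 in 3C, and 22.5 and 42.5 in 5C, while Lyve1 was called lower in both cocktails. The part of these cells in the Nos3 difference was not tested. Nos2, which competes with arginase for arginine in inflammatory macrophages, stayed under 1 CPM in all libraries.

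At an adjusted p under 0.05 alone, 5 of the 21 genes around arginine and ornithine were higher and 3 lower in 5C than in 3C, beside 7.33% and 5.33% of all genes. Oat of the glutamate list, which degrades ornithine to glutamate semialdehyde, was at 202 and 196 CPM in DMSO, 163 and 162 in 3C, and 277 and 288 in 5C. It rose in 5C (0.51, adjusted p = 0.000358), fell in 3C (-0.29, adjusted p = 0.0105) and was higher in 5C than in 3C by 0.80 on the log2 scale (adjusted p = 0.000258), without a call. The cationic amino acid transporter Slc7a1 was at 195 and 178 CPM in DMSO, 109 and 113 in 3C and 158 and 175 in 5C, and fell by 0.75 (adjusted p = 0.000148) on the log2 scale in 3C, with a difference of 0.58 between the cocktails (adjusted p = 0.00208). Slc7a2, another arginine transporter, had the opposite order, at 180 and 159 CPM in DMSO, 306 and 279 in 3C and 167 and 207 in 5C, with a difference of -0.65 (adjusted p = 0.00599).

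Of 12 known regulators of urea cycle genes, all tested, 3 were called higher in both cocktails (Hnf4a, Gcgr and Ppargc1a), none was called lower, and none was called between the cocktails. The shares of all genes called higher were 7.3% in 5C and 5.83% in 3C, and those called lower 4.42% and 3.62%. Between the cocktails, 2.16% of all genes were called higher in 5C and 0.852% lower. Hnf4a, the nuclear receptor on which much hepatocyte gene expression depends, was at 98.6 and 91.4 CPM in DMSO, 254 and 243 in 3C, and 199 and 192 in 5C. Its level was lower in 5C than in 3C (log2 change -0.35, adjusted p = 0.0119). Gcgr, the glucagon receptor, was at 1.32 and 0.338 CPM in DMSO, 5.03 and 4.09 in 3C, and 15.7 and 15.3 in 5C, with a difference of 1.77 between the cocktails that missed the test (adjusted p = 0.0656). Ppargc1a, a coactivator induced in fasting, was at 2.87 and 2.04 CPM in DMSO, 7.40 and 7.37 in 3C, and 5.10 and 6.22 in 5C. Cebpa, a hepatocyte transcription factor, was at 176 and 177 CPM in DMSO and 169 and 157 in 3C, and fell to 122 and 117 in 5C (log2 change -0.57, adjusted p = 0.00026). Klf15, a regulator of amino acid catabolism, rose by 0.59 (adjusted p = 0.000377) in 5C and 0.92 (adjusted p = 3.54e-05) in 3C. Nr3c1, the glucocorticoid receptor, did not pass the test in any comparison.

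Of 10 genes of periportal hepatocytes, where the cycle is strongest in the liver, 6 were called higher in 5C and 7 in 3C, beside 7.3% and 5.83% of all genes, with a median log2 change of 2.62 and 2.59. Among those called, Hsd17b6 was at 0 in both DMSO libraries. It passed the filter on low counts only through the treated libraries, so its presence among the genes tested was tied to its difference. Cyp2f2, Gls2, Sds and Uroc1 were under 1 CPM in both DMSO libraries. Pck1, the gluconeogenic enzyme induced by cAMP, went from 3.33 and 1.44 CPM in DMSO to 23.9 and 27.4 in 3C and 93.4 and 147 in 5C. When 5C was set against 3C, 3 genes of this list (Pck1, Hsd17b6 and Uroc1) were called, all of them higher, beside 2.16% of all genes. No urea cycle gene was called in that comparison. Of 9 cAMP-responsive genes tested in it, 2 (Nr4a3 and Pck1) were called higher and 7 were not called. At an adjusted p under 0.05 alone, 4 of the 9 were higher and 1 lower, beside 7.33% and 5.33% of all genes. Sik1 of these 9 was at 96.3 and 94.5 CPM in 3C and 66.8 and 65.4 in 5C. Hal, the periportal histidine ammonia lyase, did not pass the test in any comparison. Ctsc, a lysosomal protease, fell from 178 and 215 CPM in DMSO to 130 and 133 in 3C (log2 change -0.57, adjusted p = 0.00145) and 121 and 117 in 5C (-0.73, adjusted p = 0.000295). The pericentral list of 10 genes, of which 9 were tested, had 4 called higher and 1 lower (Glul) in 5C, beside 7.3% and 4.42% of all genes. Cyp2e1 of this list went from 0.355 and 0.491 CPM in DMSO to 6.83 and 13.1 CPM in 5C. Genes of both zones were thus among those called higher.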

How the data were processed

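The authors mapped paired reads to GRCm39 and deposited 2 tables per gene, which hold estimated counts that were not normalized and FPKM scaled for gene length and library total. The submitters' processing notes name Subread, featureCounts and DESeq2, and their settings, annotation release and use of strand are not given in the sources used here. The estimated counts are whole numbers with an excess at 4 and 8, and 4 units per fragment were assumed for the floor of 12 units. Floors cover counting error only.

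Groups and replicate numbers came from the labels. The counts of all 6 libraries were fitted in edgeR 4.0.16 (R 4.3.3) with TMM scaling, filterByExpr, robust quasi-likelihood and a coefficient for each of the 3 groups, leaving 3 residual degrees of freedom. Adjusted p-values are Benjamini-Hochberg over 19135 genes. Calls needed an adjusted p under 0.05 and a log2 fold change above 1 in size. FPKM served for levels between genes and, with limma 3.58.1 on log2(FPKM + 1) or log2(FPKM + 0.1), as alternatives. DESeq2 1.42.0, other scalings and filters, a replicate block and leaving out each replicate were also tried. Positions, windows and shared sequence words came from GENCODE on GRCm39. Figures were drawn with matplotlib 3.10.9. The members and gene lists were chosen with earlier results of these data known. Named were the 9 members, the called genes of the neighbouring lists, genes of the lists that touch a described value, and the 5 profiles most like Cps1 and like Arg1.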

Additional observations from a re-analysis of the deposited data

How the results depend on the processing

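Of 483 values of the 27 member differences under up to 18 other settings, 455 kept their direction and their call, 16 gained a call, 2 lost it and 10 changed sign. Otc has no value where at least 10 counts were required in every library. Without a limit on the fold change, 5485 (5C against DMSO), 4689 (3C against DMSO) and 2423 genes (5C against 3C) were called in place of 2242, 1809 and 576, with 7 members in 3C and 1 between the cocktails. On log2(FPKM + 1) the numbers were 1231, 958 and 261, and Otc and Nags fell short of the fold limit in 5C at 0.99 and 0.92. For 5C against 3C, 1 member (Otc) was called with only the 4 libraries compared, on log2(FPKM + 0.1), with counts divided by 4, and without DMSO replicate 1 or 2, so that leaving out a replicate gave 0 to 1 members and 381 to 642 genes, the lowest without 5C replicate 2. The sign changes were all in differences near 0. Asl in 5C against 3C was -0.0179 with upper quartile scaling, -0.0261 on log2(FPKM + 1), -0.0271 on log2(FPKM + 0.1), and -0.0477 to 0.0587 when a replicate was left out. Under the same omissions Arg2 ranged from -0.0867 to 0.36 in 5C and from -0.24 to 0.20 in 3C against DMSO, and Slc25a13 from -0.0867 to 0.19 in 5C against 3C. The cause of these changes was not tested. Libraries with the same replicate number showed no clear shared deviation (correlation of deviations -0.0306 to 0.0161 over 19135 genes). This cannot show whether they shared an animal or culture. With the replicate block 2125, 1737 and 536 genes and 6, 4 and 0 members were called. Depth limits Otc most, whose DMSO libraries were at or under the floor.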
